A study of Homo sapiens with 6 samples.

Results

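The 45 genes described here are zinc-finger (ZNF) genes of the long arm of chromosome 19, 24 in the band 19q13.12 and 21 in the band 19q13.31, out of 58870 genes in the RNA-seq table of this study. They were chosen by symbol and position, with their differences between THUMPD1 knockout (KO) and wild-type (WT) cells in these same data already known. Their KO-to-WT differences, and whether each passed the threshold of the fit over all genes, are therefore given as a description and not as independent evidence. In HEK-293T cells lacking THUMPD1, 37 of the 45 genes were called higher (adjusted p under 0.05) and none lower, beside 13.7% called higher and 13.0% called lower among all tested genes. Their median log2 fold change was 0.45, or 1.36-fold. ZNF404 and ZNF793 had the highest log2 fold changes, 1.30 and 0.94. ZNF146 and ZNF428, the members nearest the centromere in their respective clusters, had the lowest, 0.019 and 0.042.

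RNA-seq was carried out on 6 libraries of HEK-293T, an immortalized line derived from human embryonic kidney. The 3 WT libraries carry the genotype label Thumpd+/+ and the 3 KO libraries the label Thumpd-/-, and both lines were grown in DMEM with no treatment named. THUMPD1 is the adapter protein that the acetyltransferase NAT10 needs to acetylate cytidine in transfer RNA. The KO line was made with CRISPR-Cas9 and is a clone grown from a sorted single cell, so genotype and clone cannot be told apart in this comparison. The labels do not say whether replicates were separate cultures, and p values then measure only the spread between these libraries.

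Most zinc-finger genes of chromosome 19 encode KRAB zinc-finger proteins. In these proteins a row of C2H2 zinc fingers reads the DNA sequence, and the KRAB domain recruits TRIM28 (KAP1), which in turn brings the histone methyltransferase SETDB1 and heterochromatin protein to the bound site. The genes arose by tandem duplication and lie in clusters, and many of their products bind and silence transposable elements. Some members depart from this plan. ZNF146, also called OZF, and ZNF260 encode proteins made of zinc fingers without a KRAB domain.

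The 19q13.12 members spanned positions 36214602 to 37817300 of chromosome 19 (GRCh38), or 1603 kb, from ZNF146 to ZNF573. The 19q13.31 members spanned 43607224 to 44500524, or 893 kb, from ZNF428 to ZNF180. Of the 45 genes, 24 lie on the plus strand and 21 on the minus strand. In 4 pairs of the 19q13.12 cluster a minus-strand and a plus-strand gene start head to head within 1000 bases of each other by their GENCODE starts, at a distance of 25 bases for ZNF829 and ZNF568, 227 for ZNF585B and ZNF383, 426 for ZNF790 and ZNF345, and 459 for ZNF529 and ZNF382. By their RefSeq starts, ZNF461 and ZNF567 as well as ZNF569 and ZNF570 are also head to head, whereas ZNF585B and ZNF383 start more than 1000 bases apart.

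RefSeq promoter windows, which run from 250 bases before to 50 bases after an annotated start (GRCh38.p14), were found for 40 of the 45 genes. ZNF155, ZNF221, ZNF223, ZNF233 and ZNF571 had no entry. The 200 bases before the start are shown for 4 genes, those with the highest and the lowest log2 fold change in each cluster among the 15 members for which this stretch overlaps no annotated exon of a protein-coding gene. They are ZNF793 (chr19:37506739-37506938, plus strand), ZNF540 (chr19:37551174-37551373, plus strand), ZNF285 (chr19:44401609-44401808, minus strand) and ZNF428 (chr19:43619630-43619829, minus strand). All are written 5′ to 3′ on the strand of the gene, and capitals mark the 2 matches found in ZNF793, GGGCGG (as its reverse complement) and CCAAT.
ZNF793: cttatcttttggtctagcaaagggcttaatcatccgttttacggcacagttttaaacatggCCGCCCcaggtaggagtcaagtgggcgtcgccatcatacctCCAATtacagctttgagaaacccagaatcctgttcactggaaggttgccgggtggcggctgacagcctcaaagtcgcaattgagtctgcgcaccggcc
ZNF540: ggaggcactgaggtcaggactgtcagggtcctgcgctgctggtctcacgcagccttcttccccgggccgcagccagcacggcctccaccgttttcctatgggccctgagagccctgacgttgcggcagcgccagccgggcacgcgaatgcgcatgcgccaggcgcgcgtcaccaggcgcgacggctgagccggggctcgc
ZNF285: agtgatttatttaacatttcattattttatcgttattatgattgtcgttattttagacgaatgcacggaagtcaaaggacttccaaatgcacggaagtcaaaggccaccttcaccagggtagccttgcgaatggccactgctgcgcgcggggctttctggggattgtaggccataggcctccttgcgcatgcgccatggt
ZNF428: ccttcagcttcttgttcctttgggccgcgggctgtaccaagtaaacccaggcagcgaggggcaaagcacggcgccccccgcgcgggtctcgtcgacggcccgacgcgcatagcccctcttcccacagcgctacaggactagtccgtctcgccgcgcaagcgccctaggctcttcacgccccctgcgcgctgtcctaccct

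These 4 stretches hold 10, 22, 11 and 23 CpG dinucleotides, in the order shown. Over the 40 windows the median CpG content was 0.798 of that predicted from base composition, with 0.782 in 19q13.12 and 0.817 in 19q13.31, against 0.577 in 27305 genes with a window (1 window per gene, the most upstream start). The 179 other ZNF and ZFP genes of chromosome 19 were close to the members, at 0.753. The window of ZNF404 had the lowest ratio of the members, 0.176, with a GC content of 39.0%, and that of ZNF428 had the highest, 1.076, with 68.7%. The RefSeq start of ZNF404 lies inside the gene as GENCODE draws it, so that the 2 annotations place its promoter differently.

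Short motifs were searched on both strands of the windows, with overlaps between motifs allowed. CCAAT occurred in 10 of the 40 member windows (25%), in 35.7% of all windows and in 59.8% of the windows of 179 other ZNF and ZFP genes of chromosome 19. GGGCGG, the core of a GC box, occurred in 11 member windows (27.5%), in 44.5% of all windows and in 75.4% of those of the other chromosome 19 zinc-finger genes. TATAAA was found in ZNF229 alone among the members (2.5%, against 12% of all windows and 2.23% of those of the other chromosome 19 zinc-finger genes). GCCATNTTG was found in ZNF585A alone (2.5%, against 3.03% and 6.15%). No member window held the cyclic AMP response element TGACGTCA, which occurred in 1.97% of all windows and 3.91% of those of the other chromosome 19 zinc-finger genes. The same was true of TGATGNAA, a sequence read by ATF4 dimers, which occurred in 3.67% and 2.23%. These matches describe the letters of 1 window per gene, and no binding was measured.

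Total expected counts per library ranged from 32225646 to 44099898, so that 1 CPM, the gene's count scaled to the library total, corresponded to between 32.2 and 44.1 read pairs. THUMPD1 itself was at 77.3, 84.6 and 80.8 CPM in WT and at 10.2, 12 and 10.9 CPM in KO, with a log2 fold change of −2.87 (SE 0.085, limma-voom adjusted p = 3.167e-08). An exact two-sided permutation test over the 20 groupings of these 6 values gave p = 0.1, the smallest p that 3 against 3 libraries allow. Among markers of the line, VIM was at 258 to 312 CPM and the kidney-lineage gene SIX2 at 18.3 to 22.2 CPM, while PAX8 was at or below 0.026 CPM. Among adult kidney markers, LRP2 was at 51.1 to 66.4 CPM, while UMOD, AQP2 and SLC34A1 had no count. The blood and endothelial markers and DCN were at most 0.113 CPM, and the collagen genes COL1A1 and COL3A1 at 9.0 to 17.0 and 1.97 to 3.73 CPM. The neurofilament genes NEFM and NEFL, which are present in HEK-293 lines, differed in opposite directions. NEFM was at 28.2 to 44.7 CPM in WT and 4.54 to 6.72 CPM in KO. NEFL was at 53.6 to 58.9 CPM in WT and 64.1 to 75.9 CPM in KO. The part of these genes in the results on zinc-finger genes was not tested.

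All 45 members were measured above the filter on low values, which kept the 15088 genes that reached 1 CPM in 3 or more of the libraries. In 44 of them every library reached 1 CPM. ZNF229 passed with all KO libraries but only 1 WT library, so that a gene like it had to be higher in KO to be tested. The smallest member count in a library was 29 read pairs, for ZNF229. In WT cells the member levels ranged from 0.93 CPM for ZNF229 to 210.9 CPM for ZNF146, with a median of 11.3 CPM. Per kilobase of exon, which allows genes to be compared with each other, ZNF146 was the most abundant at 50.9 CPM per kb, followed by ZNF428 (14.2), ZNF260 (7.93), ZNF45 (5.65) and ZNF227 (4.41), and the lowest were ZNF229 (0.169), ZNF285 (0.226) and ZNF233 (0.328). The median was 1.84 CPM per kb in 19q13.12 and 2.43 in 19q13.31.

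The first comparison asks how transcript levels of these genes differed between THUMPD1 KO and WT cells. A gene was called when its adjusted p was under 0.05 in the limma-voom fit over all 15088 tested genes. Of the members 37 were called, 20 of 24 in 19q13.12 and 17 of 21 in 19q13.31, and all were higher in KO. Over all tested genes 26.7% were called, 13.7% as higher and 13.0% as lower in KO. The fitted log2 fold change was above 0 in all 45 members, so that 0 were lower at an unadjusted p under 0.05, and 0 were called lower by edgeR or DESeq2. In 41 of them (22 in 19q13.12 and 19 in 19q13.31) every KO library was above every WT library, which held for 24.5% of all tested genes. Because the members were chosen with this contrast known, nothing is read from the distance between these shares. In RNA from whole cultures, more cells expressing a gene and more RNA per cell cannot be told apart.

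**Figure D1:**
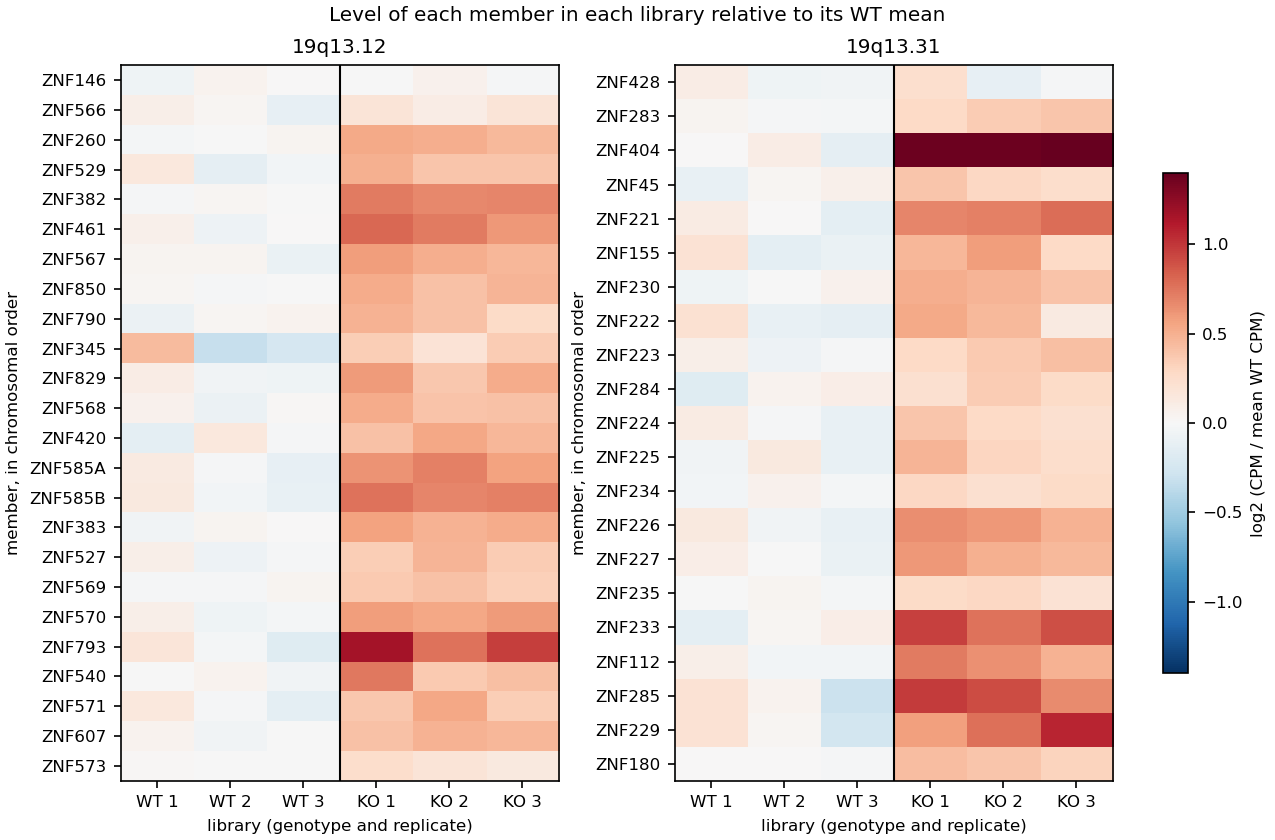
Level of each of the 45 zinc-finger genes (rows, in chromosomal order) in each of the 6 libraries (columns), as log2 of CPM over the WT mean of that gene. The 3 KO columns are red for most genes, darkest for ZNF404, whereas ZNF146 and ZNF428 stay pale in all 6 columns.

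The differences were modest in size. The log2 fold change was at least 0.5 in 18 members, 10 in 19q13.12 and 8 in 19q13.31, and at least 1 only in ZNF404. In 19q13.12 the median was 0.47 (interquartile range 0.40 to 0.54), and in 19q13.31 it was 0.39 (0.30 to 0.63). Over all tested genes the median was 0.016 and the interquartile range −0.12 to 0.14. The SE of a member's log2 fold change lay between 0.043 for ZNF146 and 0.19 for ZNF229, with a median of 0.076.

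**Figure D2:**
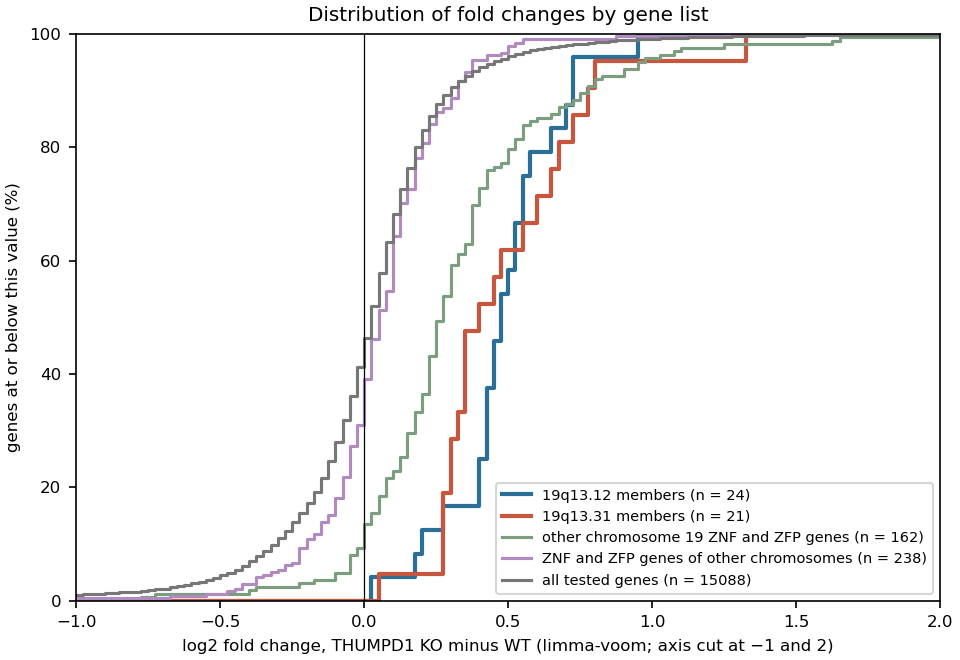
Cumulative share of genes (y axis, percent) at or below a given log2 fold change of KO against WT (x axis, in steps of 0.025) for the members of each cluster and 3 sets of other genes. The curves of the clusters start above 0 and have medians of 0.47 and 0.39, to the right of the curve of 162 other chromosome 19 zinc-finger genes (median 0.26) and of that of all tested genes (median 0.016).

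In 19q13.12 the genes with the 4 highest log2 fold changes were ZNF793, ZNF585B, ZNF382 and ZNF461. ZNF793 (37506939 to 37548762, plus strand) was at 7.17, 6.23 and 5.66 CPM in the WT libraries and at 14.3, 10.7 and 12.4 CPM in the KO libraries. The lowest KO value was well above the highest WT value, and the log2 fold change was 0.94 (SE 0.11), with KO at 197% of the WT mean. An antisense gene, ZNF793-AS1, covers the start of ZNF793, and ENSG00000180458 also overlaps it on the opposite strand. Whether the counting used strand is not given in the sources used here. The expected counts of ZNF793 were whole in every library. Whether reads of the antisense RNAs entered them was not tested. ZNF585B (37181579 to 37218153, minus strand) was at 19.4, 17.1 and 16.4 CPM in WT and at 29.7, 28.3 and 28.7 CPM in KO. Its groups did not overlap, and its log2 fold change was 0.72 (SE 0.063). ZNF382 (36604817 to 36634114, plus strand), which encodes a transcriptional repressor of the KRAB family, was at 12.9, 13.4 and 13.0 CPM in WT and at 21.8, 20.9 and 21.1 CPM in KO. Replicates of each genotype lay within 1 CPM of each other, and the log2 fold change was 0.71 (SE 0.065). ZNF461 (36636618 to 36666853, minus strand) was at 4.61, 4.19 and 4.4 CPM in WT and at 7.69, 7.26 and 6.67 CPM in KO, a log2 fold change of 0.68 (SE 0.098) with no overlap between genotypes.

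ZNF585A and ZNF585B are near-copies that lie side by side, and the division of reads between loci is the least certain for this pair. Of the 75-base words in their annotated transcripts, 8.22% of those of ZNF585A and 11.7% of those of ZNF585B also occur at another locus, in both cases mostly the other gene of the pair. ZNF585A was at 15.3, 13.8 and 12.9 CPM in WT and at 21.6, 22.8 and 20.6 CPM in KO. Its log2 fold change of 0.64 (SE 0.074) lay close to that of ZNF585B, and both were higher in every KO library than in any WT library.

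The 4 lowest values of the cluster were those of ZNF146, ZNF566, ZNF573 and ZNF345, and none of these passed the threshold. ZNF146 (36214602 to 36238771, plus strand) was at 202, 218 and 212 CPM in WT and at 211, 220 and 209 CPM in KO, so that the genotypes overlapped fully. Its log2 fold change was 0.019 (SE 0.043), and its sign turned with the scaling of the libraries, to −0.0076 with TMM library sizes. ZNF566 was at 20.7, 19.8 and 18.0 CPM in WT and at 22.1, 21.0 and 22.2 CPM in KO. All its KO values were above its WT values, but by little, and the log2 fold change was 0.17 (SE 0.064). ZNF573, at the far end of the cluster, was at 10.8, 10.7 and 10.6 CPM in WT and at 12.7, 12.1 and 11.8 CPM in KO (log2 fold change 0.19, SE 0.074). ZNF345 was at 7.38, 4.34 and 4.61 CPM in WT and at 6.92, 6.21 and 6.95 CPM in KO. Its first WT library was above all KO libraries, and without that library the log2 fold change went from 0.27 to 0.48 and the gene was called. ZNF566 was called in that setting too, at 0.19.

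ZNF260, the second most abundant member of 19q13.12 per kilobase, was at 43.2, 43.9 and 45.4 CPM in WT and at 63.9, 62.9 and 60.5 CPM in KO. Its log2 fold change was 0.50 (SE 0.048), against 0.019 (SE 0.043) for ZNF146, which also lacks a KRAB domain. The other 14 members of 19q13.12 had log2 fold changes between 0.38 and 0.57 and were all called. They were ZNF570 (0.57), ZNF567 (0.53), ZNF383 (0.53), ZNF829 (0.50), ZNF420 (0.49), ZNF850 (0.47), ZNF607 (0.47), ZNF568 (0.45), ZNF540 (0.43), ZNF529 (0.42), ZNF571 (0.42), ZNF527 (0.40), ZNF569 (0.38) and ZNF790 (0.38). ZNF420, also known as APAK, encodes a negative regulator of p53, and the mouse counterpart of ZNF568 represses a placental transcript of Igf2. ZNF540 was the called member nearest the threshold and was called in 7 of 17 settings, the reported fit and 16 alternatives. Its level was 2.21, 2.30 and 2.15 CPM in WT and 3.70, 2.86 and 2.98 CPM in KO.

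In the head-to-head pairs by GENCODE starts, both genes had positive log2 fold changes, 0.50 and 0.45 for ZNF829 and ZNF568, 0.72 and 0.53 for ZNF585B and ZNF383, 0.42 and 0.71 for ZNF529 and ZNF382, and 0.38 and 0.27 for ZNF790 and ZNF345. Levels within a pair could differ. ZNF529 was at 30.9 CPM ± 3.00 (SD, n = 3) in WT and ZNF382 at 13.13 CPM ± 0.245 (SD, n = 3), or at 3.78 and 1.16 CPM per kb of exon.

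**Figure D3:**
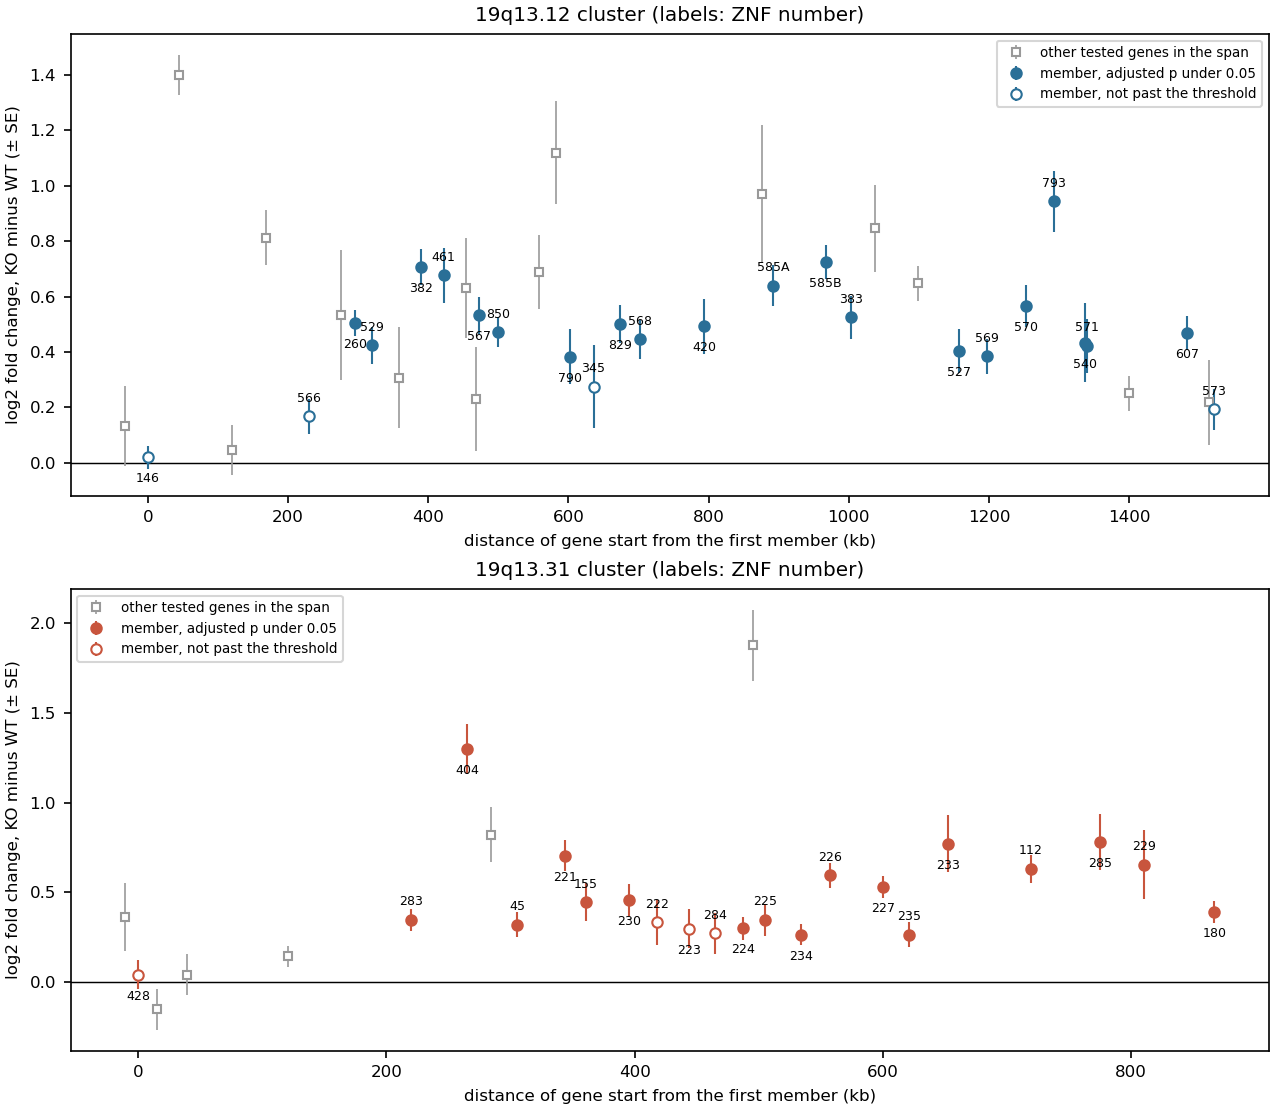
Log2 fold change of KO against WT (y axis, ± SE) along each cluster (x axis, distance of the gene start from that of the first member in kb), with filled circles for called members, open circles for members not called and grey squares for other tested genes of the span. ZNF146 and ZNF428 lie at the left end of their clusters and near 0, and ZNF793 and ZNF404 are the highest members.

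In 19q13.31 the genes with the 4 highest log2 fold changes were ZNF404, ZNF285, ZNF233 and ZNF221. ZNF404 (43872365 to 43901385, minus strand) was at 1.47, 1.59 and 1.35 CPM in WT and at 3.80, 3.80 and 3.90 CPM in KO. The KO mean was 261% of the WT mean, and the log2 fold change was 1.30 (SE 0.14). Annotated genes overlap it, 2 on its own strand and 1 on the opposite strand. Of its 75-base words, 15.5% also occur in overlapping genes, and its counts were not whole in every library. ZNF285 was at 1.78, 1.61 and 1.26 CPM in WT and at 3.06, 2.93 and 2.45 CPM in KO (log2 fold change 0.78, SE 0.16). Of its words, 4.37% occur in the pseudogene ZNF285BP. ZNF233 was at 1.21, 1.35 and 1.42 CPM in WT and at 2.57, 2.25 and 2.48 CPM in KO (0.77, SE 0.16). ZNF404, ZNF285 and ZNF233 were among the least abundant members, with at most 1.78 CPM in any WT library, yet no KO value of theirs fell within the WT range. ZNF221 (43951223 to 43967709, plus strand), better measured, was at 7.38, 6.87 and 6.22 CPM in WT and at 11.0, 11.2 and 11.7 CPM in KO, a log2 fold change of 0.71 (SE 0.088).

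**Figure D4:**
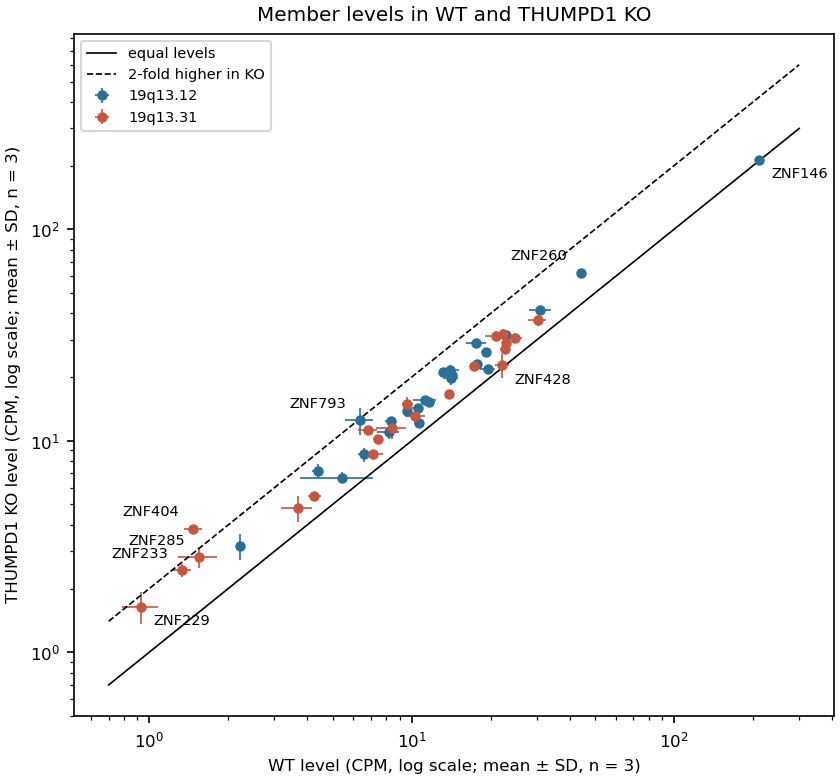
Mean level of each member in KO (y axis) against WT (x axis), both in CPM on log scales with error bars of 1 SD (n = 3 libraries), the line of equal levels drawn solid and that of a 2-fold difference dashed. Members lie above the solid line over the whole range of levels, ZNF146 at the upper end lies on it, and only ZNF404 lies above the dashed line.

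The 4 lowest values of 19q13.31 were those of ZNF428, ZNF234, ZNF235 and ZNF284. ZNF428 (43607224 to 43619629, minus strand) was at 23.7, 21.3 and 21.3 CPM in WT and at 26.0, 20.4 and 21.9 CPM in KO, and its genotypes overlapped. Its log2 fold change of 0.042 (SE 0.080) rested on the first KO library, without which it was −0.045. ZNF234 was at 22.0, 23.6 and 22.3 CPM in WT and at 27.6, 26.4 and 27.2 CPM in KO, a small difference (0.27, SE 0.060) with no overlap. ZNF235 was at 13.8, 14.2 and 13.7 CPM in WT and at 16.7, 17.1 and 16.0 CPM in KO (0.27, SE 0.070), and was no longer called by DESeq2 (0.23), without the third WT library (0.27) or without the second KO library (0.23). ZNF284 was at 6.33, 7.37 and 7.59 CPM in WT and at 8.29, 9.07 and 8.52 CPM in KO (0.27, SE 0.11). ZNF284 was not called without a block, although its groups did not overlap.

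ZNF45, second to ZNF428 in level per kilobase, was at 23.2, 25.3 and 26.1 CPM in WT and at 32.5, 30.3 and 29.5 CPM in KO, with a log2 fold change of 0.32 (SE 0.067). Of the other 12 members of 19q13.31, 10 were called. Their log2 fold changes were 0.65 for ZNF229, 0.63 for ZNF112, 0.60 for ZNF226, 0.53 for ZNF227, 0.46 for ZNF230, 0.44 for ZNF155, 0.39 for ZNF180, 0.35 each for ZNF283 and ZNF225, and 0.30 for ZNF224, whose product binds the Wilms tumour protein WT1. The remaining genes ZNF222 (0.33) and ZNF223 (0.30) were not called. ZNF223, the closest to the threshold of the members not called, was at 4.52, 4.05 and 4.21 CPM in WT and at 5.17, 5.50 and 5.72 CPM in KO. With the replicate number as a block, ZNF222, ZNF223 and ZNF284 were called as well, which made 20 of 21 in 19q13.31 and left 20 of 24 in 19q13.12. ZNF229, the least abundant member at 1.07, 0.945 and 0.778 CPM in WT and 1.39, 1.59 and 1.96 CPM in KO, was called in 11 of 16 settings that tested it. Without the second KO library 13 members of 19q13.31 were called.

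ZNF155, ZNF223, ZNF224 and ZNF284 share the most words with overlapping annotations, at 37.5%, 43.2%, 40.6% and 43.0%. Counts of ZNF155, ZNF223 and ZNF284, which overlap genes on their own strand, were not whole in every library. ZNF224, whose overlapping gene ZNF225-AS1 lies on the opposite strand, had whole counts in every library. Strand of overlap and whole counts did not go together throughout. ZNF607 and ZNF568 overlap genes on their own strand and had whole counts. ZNF221 overlaps no annotated gene, yet its counts were not whole in every library. Over all members, 37 overlap another annotated gene, 16 on the same strand and 30 on the opposite strand. At other loci 27 members share no 75-base word at all, and 5 share more than 1%. Expected counts were not whole in all libraries for 9 members, 3 in 19q13.12 and 6 in 19q13.31.

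The median log2 fold change was 0.45 for the 24 plus-strand genes and 0.47 for the 21 minus-strand genes. Across the 45 members, Spearman's rho between GC content and log2 fold change was −0.075, and between WT level and log2 fold change −0.36 (−0.15 in 19q13.12 and −0.56 in 19q13.31). The members share their libraries, and WT level enters both measures of the second relation, so these values are descriptions.

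The second comparison sets the clusters side by side. Summed over its 24 members, 19q13.12 reached 537, 536 and 528 CPM in the WT libraries and 674, 668 and 653 CPM in the KO libraries. Without ZNF146 the values were 335, 317 and 316 CPM in WT and 463, 447 and 444 CPM in KO. The 21 members of 19q13.31 summed to 268, 260 and 252 CPM in WT and to 353, 339 and 328 CPM in KO. In both clusters every KO sum exceeded every WT sum. The mean log2 CPM of the members was higher in 19q13.12 than in 19q13.31 by 0.684 ± 0.023 (SD, n = 3) in WT and by 0.657 ± 0.017 (SD, n = 3) in KO. The single values were 0.692, 0.659 and 0.703 in WT and 0.662, 0.638 and 0.672 in KO, so that the genotypes overlapped, although within each replicate number the KO value was the lower one. The mean log2 CPM of the members was thus higher in KO by 0.48 in 19q13.12 and by 0.50 in 19q13.31. The medians of the fitted log2 fold changes ran the other way, with 19q13.12 above 19q13.31 by 0.078, and this difference lay between 0.039 (without the third KO library) and 0.115 (without the second KO library) when single libraries were left out. The spread among members was wider in 19q13.31, where the interquartile range and the highest value both exceeded those of 19q13.12.

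Other genes inside the spans show where the members stood among their neighbours. Besides the 24 members, 5 other tested genes of the 19q13.12 span are zinc-finger genes. Of these, ZFP82 (log2 fold change 0.81), ZNF875 (0.65) and ZFP30 (0.25) were called higher, and ZNF565 (0.13) and ZFP14 (0.046) were not. ZNF875, formerly HKR1, was at 20.9, 18.9 and 17.7 CPM in WT and at 31.0, 29.1 and 29.5 CPM in KO. Of 10 tested noncoding genes of that span 6 were called, among them LINC00665 (1.4) and ZNF790-AS1 (1.12). In the 19q13.31 span both tested noncoding genes were called, ZNF225-AS1 at 1.88 and ENSG00000267058, which overlaps ZNF404, at 0.82. ZNF225-AS1 was under 1 CPM in every WT library, and ZNF790-AS1 in all but the first. Both passed the filter only with the help of KO libraries, so that genes like them had to be higher in KO to be tested. Several other noncoding genes were under 1 CPM in at least 1 WT library, whereas LINC00665 was at 10.3 to 10.6 CPM in WT. Nothing is read from the counts of called noncoding genes. The 4 coding genes of the 19q13.31 span without zinc fingers, SRRM5 (0.36), CADM4 (−0.15), PLAUR (0.043) and SMG9 (0.15), were not called. All 4 lie beside ZNF428 and before the start of ZNF283, the next member. They are therefore neighbours of ZNF428 and do not lie among the other members. SRRM5 too was under 1 CPM in every WT library and passed the filter only through the KO libraries.

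Coding genes without a zinc-finger symbol within 500 kb of the spans had medians of −0.055 (22 genes, 2 called higher and 3 lower) around 19q13.12 and −0.028 (13 genes, 4 higher and 3 lower) around 19q13.31. Between the clusters the median of 81 such genes was −0.014, with 5 called higher and 13 lower. Of 162 other ZNF and ZFP genes of chromosome 19, 85 were called higher and 4 lower, with a median of 0.26. On other chromosomes, 40 of 238 ZNF and ZFP genes were called higher and 21 lower, with a median of 0.041. Over 689 chromosome 19 coding genes without a zinc-finger symbol the median was −0.0013, with 82 higher and 89 lower. Since the members were chosen with this contrast known, the difference between them and these sets was not tested.

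Of 20 genes listed here as KRAB co-repressors, 3 were called higher and 3 lower, 15.0% each way, which is near the shares of 13.7% and 13.0% of all tested genes. The median log2 fold change was 0.011. ZNF274, a zinc-finger protein that recruits SETDB1 to zinc-finger gene clusters, was at 0.40, SETDB1 itself at 0.37 and the modifier SUMO2 at 0.21. ZNF274 is itself a zinc-finger gene of chromosome 19 and is also counted among the 162 other ZNF and ZFP genes. The called genes that were lower were TASOR (−0.21), MPHOSPH8 (−0.20) and UHRF1 (−0.16), which guides DNA methylation to newly made DNA. TRIM28, the common partner of KRAB domains, had a log2 fold change of −0.066 and was not called.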

How the data were processed

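Gene-level RNA-seq values were analysed for HEK-293T cells, with 3 libraries per genotype grouped by their labels. Per the labels and methods, the authors isolated total RNA with Trizol, depleted ribosomal RNA, made stranded libraries and ran them in paired-end mode. They aligned reads to GRCh38 with STAR and deposited expected counts (estimated counts per gene, not scaled between libraries) from RSEM. Versions of both tools and the strand setting are not given in the sources used here. The methods name GENCODE 46. Positions, lengths and symbols here came from GENCODE 44, which held 58472 of the 58870 Ensembl IDs. The ID versions and names in the table fit an older release than the one the methods name. Overlaps and shared words describe GENCODE 44, and some of those genes may be absent from the annotation used for counting. ZNF221 and ZNF223 carry older clone names in the table and were matched by ID.

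Following the study, genes under 1 CPM were left out. Here a gene was kept when 3 or more libraries reached that level, a number the study does not give, and the 15088 genes kept hold 99.7% to 99.8% of all counts. The fit was limma-voom after quantile normalization, with genotype as its only term (limma 3.58.1 in R 4.3.3). Two-sided p values were adjusted by Benjamini-Hochberg over the genes tested, with a threshold of 0.05. CPM came from the deposited counts and library totals. Log2 fold changes are from the fit. The alternatives were other scalings and filters, edgeR 4.0.16 and DESeq2 1.42.0 on rounded counts, each library left out, a replicate block, and removal of trends along GC content and transcript length within libraries (splines with 5 degrees of freedom). The scripts were tested on simulated data.

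The members, gene lists and tests were chosen with earlier results of these data known. Values per library are given for the 4 members with the highest and the 4 with the lowest log2 fold change per cluster, the 2 per cluster with the highest WT level per kilobase, near-identical pairs and, chosen after their values were seen, the members on either side of the threshold and ZNF229. Other zinc-finger genes of the spans and the listed co-repressors were named too, and noncoding and coding genes of the spans were named after their values were seen. Near-identical pairs were found by shared 75-base transcript words in place of protein identity, and protein features were not analysed here. Same-numbered WT and KO libraries deviated together from their group means over 12957 genes (Pearson r of 0.292, 0.246 and 0.159, against −0.273 to 0.110 for unlike numbers). The replicate number was therefore used as a block in alternative settings, while the reported fit left this pairing out. What the numbers mark is not stated in the labels.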

Additional observations from a re-analysis of the deposited data

How the results depend on the processing

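Across 16 alternative settings, 31 of the 45 members were called in each setting that tested them, 3 (ZNF146, ZNF428 and ZNF573) in none, and no member was called lower. The share of all tested genes that were called in every setting was not computed. The members were chosen with this contrast known, so nothing is read from the count of 31. ZNF146 turned sign, to −0.0076 with TMM library sizes, −0.0082 by edgeR, −0.0073 by DESeq2, −0.0112 without the first WT library (the lowest with 1 library left out, the highest being 0.0444 without the second WT library), −0.0012 without the second KO library, −0.0433 with the GC and length trend removed and −0.0435 with the replicate block added to that. ZNF428 went to −0.0447 without the first KO library and to 0.1111, its highest value of this kind, without the second. In these cases the cause was not tested. The median log2 fold change of 19q13.12 was 0.4244 with the GC and length trend removed and 0.4205 with the replicate block as well, and that of 19q13.31 was 0.3323 and 0.3319. With single libraries left out, the difference between these medians ranged from 0.039 to 0.115, and the number of genes called in the whole table from 2663 (without the second KO library) to 4245 (without the first WT library), against 4025. Over the same omissions, 18 to 21 members of 19q13.12 and 13 to 17 of 19q13.31 were called, the lowest of both without the second KO library. In the other settings the counts were 19 or 20 and 16 to 20. With the replicate block 40 members and 5297 genes of the table were called, and ZNF222, ZNF223 and ZNF284 were the members gained. Depth limits the members near 1 CPM most, and ZNF229 was not tested when all 6 libraries had to reach 1 CPM.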
